A study of Homo sapiens with 2 samples.

Results

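The heat shock proteins and co-chaperones are the protein-folding helpers of the cell, and they were read here in MDA-MB 231 cells, an invasive human breast cancer line without estrogen receptor. Members were the probe sets for which the platform lists a gene symbol beginning with HSPA, HSPB, HSPD, HSPE, HSPH or DNAJ followed by a digit or letter, with HSP90, or with BAG or HSF followed by a digit, leaving out HSPBAP1 and HSPBP1. This gave 207 of the 54675 probe sets on the array, for 88 genes or groups of genes listed together. The members were picked on gene symbols alone, but HSPB1 was chosen by its measured ratio between S100A7 and vector cells, so that difference is a description and was not tested.

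The 2 arrays hold RNA of stable transfectants of the line. S100A7 cells carried S100A7, a small calcium-binding protein known from inflamed skin, sub-cloned into the plasmid pIRES2-EGFP. Vector cells carried pIRES2-EGFP alone, so both groups hold the plasmid with its EGFP reporter. With 1 array for each group there were no replicates and no test, and every difference below compares these arrays and not the conditions. Whether the selected cells were 1 clone or a pool, and which promoter drove the insert, is not given in the sources used here, and the confluence at harvest is given only for vector cells. The S100A7 probe set read 13232 in S100A7 cells and 11.99 in vector cells, at least 186-fold higher. VIM, CD44, CAV1 and AXL, which mark this mesenchymal type of line, read at least 11465 in both groups in their brightest probe set. ESR1, PGR and the leukocyte gene PTPRC were below the floor in both groups, while GATA3, a luminal transcription factor, read 752 in S100A7 cells and 719.7 in vector cells.

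Heat shock proteins bind unfolded or stressed proteins. HSP70 proteins (the HSPA genes) and HSP90 proteins work in cycles of ATP hydrolysis. J-domain proteins (the DNAJ genes) deliver clients to HSP70 and start its ATPase. Most BAG proteins, and the HSP110 protein encoded by HSPH1, make HSP70 let go of its nucleotide. HSPD1 and HSPE1 form the folding chamber of mitochondria. Small heat shock proteins (the HSPB genes) need no ATP and hold unfolding proteins until HSP70 takes them over. HSF1 is the transcription factor that turns on the inducible members after heat or other protein damage.

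HSPB1, the small heat shock protein also called HSP27, was lower in S100A7 cells, while the median of each other family stayed within 1.5-fold. Its probe set read 1438 in S100A7 cells and 5649 in vector cells. That is 3.93-fold lower, a log2 ratio (S100A7 over vector) of -1.97. It was the lowest ratio of all 70 members that could be measured, and only 27 of the 13419 measured genes, HSPB1 included, lay at or below it. The other 69 members had a median log2 ratio of -0.10, and HSPB1 minus that median was -1.88. A gene counted as measured when at least 1 of its probe sets reached the array's floor (69.0 in S100A7 cells, 71.0 in vector cells, the 50th percentile of each array), and its brightest measured probe set stood for it.

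HSPB1 is read by 1 probe set, so there was no other probe set to set beside it. The name of that probe set ends in _s_at, a suffix for probes that can match several transcripts. Between probe sets of the same gene, log2 ratios had a pooled standard deviation of 0.36 over 6722 genes and of 0.30 over the members. These measure disagreement between probes and hold no spread between cultures.

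No other gene with an HSPB symbol was measured. The 10 other probe sets of the family, which list HSPB2, HSPB3, HSPB6, HSPB7, HSPB8 and HSPB9, read 6.33 to 50.3 in S100A7 cells and 2.47 to 59.04 in vector cells, all below the floor. The small heat shock proteins CRYAA and CRYAB, which lack an HSPB symbol and were no members, were looked up after the values were seen and were also below the floor. CRYAA read 27.8 in S100A7 cells and 49.9 in vector cells, and CRYAB 23.6 in S100A7 cells and 69.99 in vector cells.

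**Figure D1:**
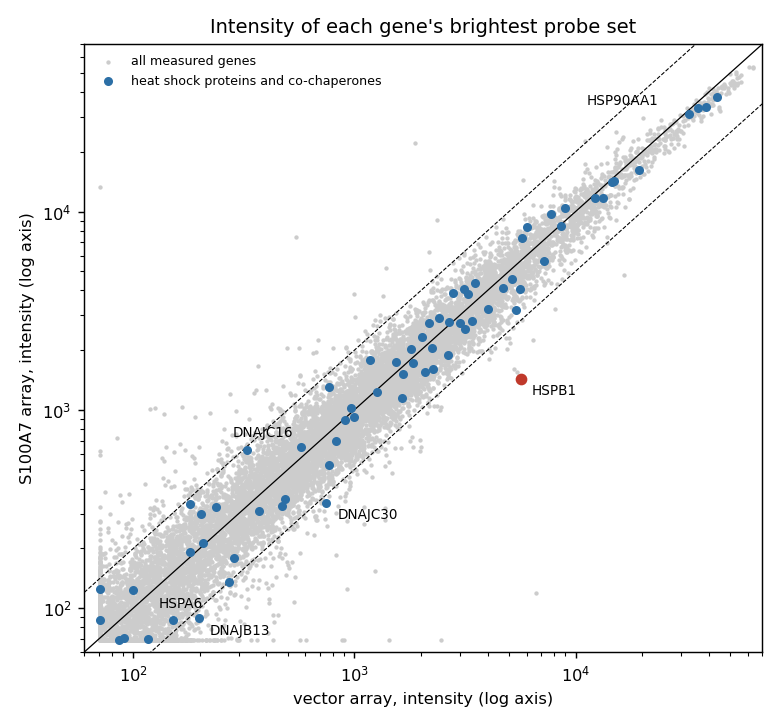
Each point is the brightest probe set of a measured gene, with its intensity in vector cells on the horizontal log axis and in S100A7 cells on the vertical log axis; values under the floor are drawn at the floor. The solid line marks equal intensity and the dashed lines 2-fold. Blue points are the 70 measured heat shock proteins and co-chaperones and grey points all 13419 measured genes; HSPB1 (red) lies at 1438 in S100A7 cells and 5649 in vector cells, below the lower dashed line.

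Of the 70 members, 3 reached 2-fold lower in S100A7 cells (4.29%), where 2.33% of all measured genes did. None of the 70 (0) reached 2-fold higher, where 1.86% of all measured genes did. At 1.5-fold, 5 members were higher (7.14%, against 8.15% of all genes) and 8 lower (11.4%, against 10.1% of all genes). These shares are close to the background. The median log2 ratio of the members was -0.10 and that of all measured genes -0.04, with 61.4% of the members and 54.4% of all measured genes below 0. Within 1.5-fold lay 57 members, or 81.4%, and 81.7% of all measured genes.

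By family, the median log2 ratio was -0.07 for the 3 HSP90 genes, -0.10 for 13 HSPA genes or gene groups, -0.14 for HSPD1 and HSPE1, 0.21 for HSPH1, -0.28 for 4 DNAJA genes, -0.19 for 10 DNAJB genes, -0.02 for 25 DNAJC genes and 0.25 for 6 BAG genes. HSF1, the 1 measured HSF gene, was at -0.43. The widest spread was within DNAJC, from -1.13 to 0.94. The 18 members that were not measured read at most 67.2 in S100A7 cells and 63.5 in vector cells. Besides the 7 HSPB entries they were HSPA1L on its own probe sets, DNAJB7, DNAJB8, DNAJC5G, DNAJC12, DNAJC28, HSF4, HSF5 and the antisense entries DNAJB8-AS1, DNAJC27-AS1 and HSPA2-AS1.

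**Figure D2:**
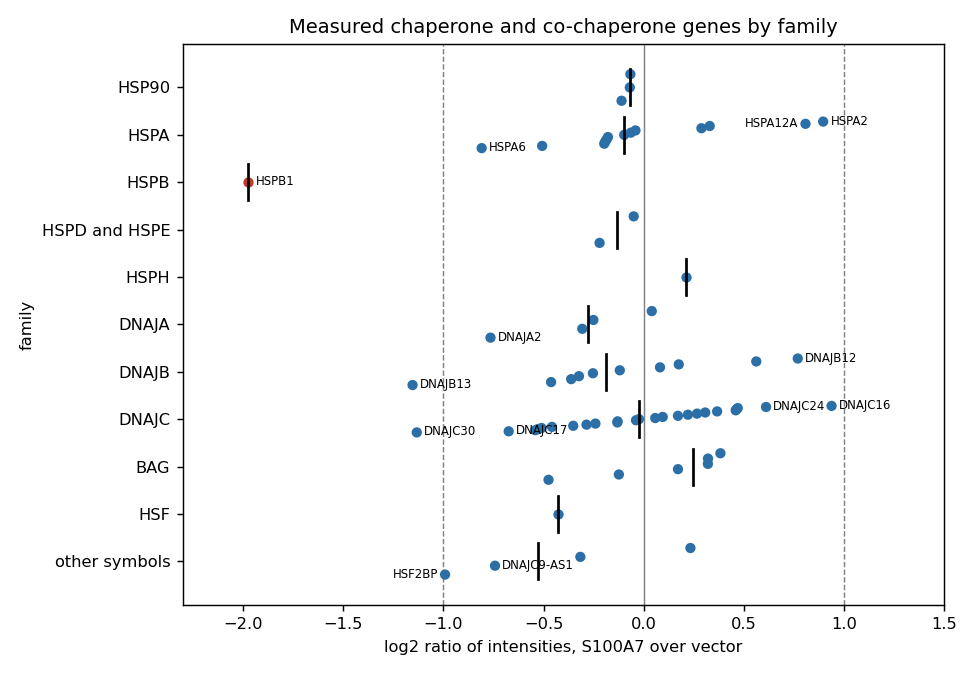
Log2 ratios of S100A7 over vector intensity (horizontal axis) for the 70 measured members, 1 point per gene, in rows by family; black bars are family medians, dashed lines mark 2-fold, and members at least 1.5-fold apart are named. HSPB1 (red) lies at -1.97, while the medians of the families other than "other symbols" lie between -0.43 for HSF1 alone and 0.25 for the BAG genes; "other symbols" holds antisense, readthrough and HSF2BP entries that met the symbol rule.

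The cytosolic HSP90 genes and HSPA8 read nearly the same in both groups. HSP90AA1, the inducible cytosolic HSP90, read 33216 in S100A7 cells and 35874 in vector cells, and its 4 probe sets lay between -0.11 and -0.05 on the log2 scale. HSP90AB1, the constitutive form, read 31184 in S100A7 cells and 32665 in vector cells (log2 ratio -0.07). Its other probe sets were above 0, at 0.07 and 0.22. The brightest probe set listing HSPA8, the constitutive HSP70, which is listed together with the small nucleolar RNAs SNORD14C and SNORD14D, read 38027 in S100A7 cells and 43449.5 in vector cells. The 4 probe sets of that kind lay between -0.19 and 0.09, on both sides of 0.

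The HSP70, HSP90 and chaperonin genes of other compartments were also within 1.5-fold in their brightest probe sets. In the endoplasmic reticulum, HSPA5 (the HSP70 known as BiP) read 11719.8 in S100A7 cells and 13268 in vector cells. HSP90B1 (the HSP90 known as GRP94) had a log2 ratio of -0.07 in a probe set that also lists a microRNA gene. The 4 probe sets of HSP90B1 lay between -0.46 and 0.13. In mitochondria, HSPD1 read 33487 in S100A7 cells and 39024 in vector cells (log2 ratio -0.22), and HSPE1 read 14086.5 in S100A7 cells and 14588 in vector cells (-0.05). A dim HSPD1 probe set, 121.7 in S100A7 cells and under the floor at 55.8 in vector cells, went the other way (log2 ratio at least 0.78). The mitochondrial HSP70 gene HSPA9 had a log2 ratio of -0.06.

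The stress-inducible members did not share a direction. HSPA6, the HSP70 gene that is nearly silent until cells are stressed, read 86.7 in S100A7 cells and 152 in vector cells, 1.75-fold lower. Its other probe set read 53.4 in S100A7 cells, below the floor, and 141 in vector cells, at least 2.04-fold lower. HSPA6 and DNAJB13 were the 2 members with at least 2 measured probe sets all 1.5-fold lower, both from dim intensities. Of the members with at least 2, 0 had all probe sets 1.5-fold higher. The same counts were not made over all measured genes, so these have no background share to be read against. The probe sets that list HSPA1A and HSPA1B together, the main inducible HSP70 genes, whose near-identical transcripts they cannot separate, disagreed in size. The brightest read 4557 in S100A7 cells and 5181 in vector cells (log2 ratio -0.19), and the dimmest read 363.5 in S100A7 cells and 688 in vector cells (-0.92). A further one, which also lists HSPA1L, read 1727 in S100A7 cells and 1848 in vector cells (-0.10). DNAJB1, the inducible J-domain protein called HSP40, read 4083 in S100A7 cells and 5627 in vector cells (-0.46), with its other probe set at -0.33. Against these, HSPH1 read 10401 in S100A7 cells and 8998 in vector cells (0.21), with all 3 of its probe sets between 0.17 and 0.26. BAG3, an inducible partner of HSP70 and of small heat shock proteins in selective autophagy, read 4387 in S100A7 cells and 3515 in vector cells (0.32).

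HSF1 itself read 1552 in S100A7 cells and 2085 in vector cells, a log2 ratio of -0.43, and its other probe set was at -0.73. Both probe sets were lower in S100A7 cells, the dimmer by more than 1.5-fold. The 40 nearest measured genes along chromosome 8 had a median of -0.52, so HSF1 stood beside genes with a like ratio.

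**Figure D3:**
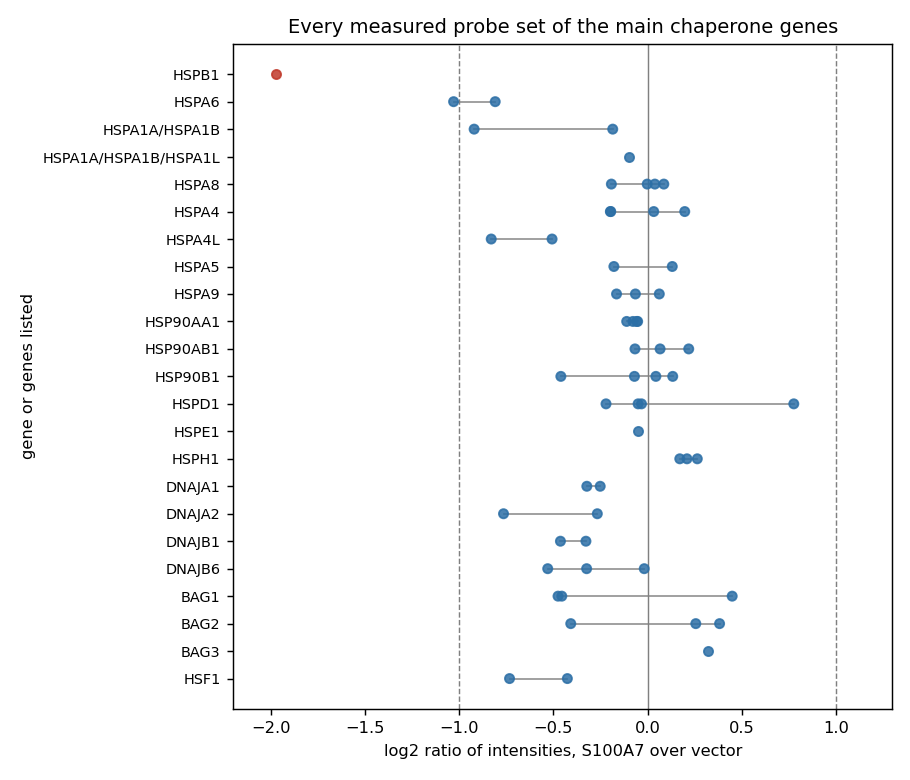
Log2 ratios of S100A7 over vector intensity for every measured probe set of 23 chaperone genes or gene groups, 1 row per gene; points are probe sets, grey lines join those of a gene and dashed lines mark 2-fold. HSPB1 has a single point at -1.97 and HSP90AA1 has 4 points between -0.11 and -0.05. Several genes, among them BAG1, BAG2, HSPD1, HSP90AB1 and HSP90B1, have points on both sides of 0.

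The promoters of HSPB1 and of the members in which an exact search found a full heat shock element are shown because HSF1 acts through that element. The element was searched as 3 alternating units, GAANNTTCNNGAA or its reverse complement TTCNNGAANNTTC, in the 250 bases before the start of each gene (RefSeq, GRCh38.p14). It was found in 155 of 35116 promoters (0.441%), and in 3 of the 78 member genes with an entry, HSPA6, HSPA8 and DNAJB6. Both strands are covered by the pair of patterns, and each pattern contains the 2-unit forms GAANNTTC and TTCNNGAA, which occur in 11.6% of all promoters. HSPB1 held no full element in this window and held the 2-unit form once. The inducible HSP90AA1, HSPA1A, HSPA1B, DNAJB1, HSPH1 and BAG3 held no full element there either. This says only that these exact letters are not in the window, and does not show whether HSF1 acts on a gene. In the sequences, printed 5′ to 3′ on the gene's strand, capitals mark the full element in HSPA6, HSPA8 and DNAJB6 and the 2-unit form in HSPB1.
HSPB1 (chr7:76302423-76302672, plus strand): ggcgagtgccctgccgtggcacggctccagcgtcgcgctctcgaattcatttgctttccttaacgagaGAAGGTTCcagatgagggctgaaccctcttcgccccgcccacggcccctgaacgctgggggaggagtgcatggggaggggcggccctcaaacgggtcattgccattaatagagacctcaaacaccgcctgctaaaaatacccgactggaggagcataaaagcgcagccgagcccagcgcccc
HSPA6 (chr1:161524290-161524539, plus strand): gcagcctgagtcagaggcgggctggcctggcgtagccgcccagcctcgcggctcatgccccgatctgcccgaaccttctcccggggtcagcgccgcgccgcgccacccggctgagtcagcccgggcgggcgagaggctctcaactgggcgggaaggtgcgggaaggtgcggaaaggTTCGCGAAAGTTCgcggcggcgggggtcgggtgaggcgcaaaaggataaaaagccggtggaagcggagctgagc
HSPA8 (chr11:123062137-123062386, minus strand): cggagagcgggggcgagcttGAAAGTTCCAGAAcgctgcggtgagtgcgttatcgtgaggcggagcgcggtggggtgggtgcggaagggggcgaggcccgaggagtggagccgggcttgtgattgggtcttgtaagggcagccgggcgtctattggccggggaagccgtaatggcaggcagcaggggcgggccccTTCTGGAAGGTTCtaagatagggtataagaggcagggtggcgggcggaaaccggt
DNAJB6 (chr7:157336754-157337003, plus strand): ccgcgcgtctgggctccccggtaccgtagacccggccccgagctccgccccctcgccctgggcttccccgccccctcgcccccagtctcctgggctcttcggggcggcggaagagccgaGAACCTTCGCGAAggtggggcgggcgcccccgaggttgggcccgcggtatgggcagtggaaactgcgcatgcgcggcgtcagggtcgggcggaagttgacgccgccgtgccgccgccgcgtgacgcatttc

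The 3 members with the full element had log2 ratios of -0.81 (HSPA6), -0.32 (DNAJB6) and -0.19 (HSPA8), a median of -0.32. The DNAJB6 value is from a probe set that also lists TMEM135. The probe set listing DNAJB6 alone was at -0.53, and a further shared one at -0.02. For 60 measured member symbols without the element the median was -0.08. Symbols listed together were counted apart there, so HSPA1A and HSPA1B held the same value (-0.19), as did DNAJC25 and DNAJC25-GNG10 (-0.24). HSPA1L was counted by its shared probe set (-0.10). Among all measured genes with a promoter entry, the 38 with the element had a median of -0.08 and the 10274 without it a median of -0.04. Of those 38 genes, 21 were below 0, 2 reached 2-fold higher and 0 reached 2-fold lower. Of the 10274 genes without the element, 5536 were below 0, 173 reached 2-fold higher and 211 reached 2-fold lower. With 3 members these medians describe the genes named and no more. The members without the element include HSPB1 and the inducible genes named with it, so the medians do not set HSF1 targets against other genes.

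Among J-domain proteins, 2 genes were at least 2-fold lower. DNAJB13, a J-domain protein of cilia and sperm tails, read 88.8 in S100A7 cells and 198 in vector cells, 2.23-fold lower, and its other probe set, at 68.8 in S100A7 cells, just below the floor, and 122 in vector cells, was at least 1.77-fold lower. DNAJC30, a mitochondrial J-domain protein, read 340.4 in S100A7 cells and 747 in vector cells, 2.19-fold lower. Its other measured probe set, 101 in S100A7 cells and 112 in vector cells, was nearly level (-0.15).

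Other J-domain genes were lower by less. DNAJA2, a general partner of cytosolic HSP70, read 3181 in S100A7 cells and 5406 in vector cells, 1.70-fold lower, and its other probe set was at -0.27. DNAJC17, known from the cell nucleus, read 178 in S100A7 cells and 285 in vector cells (log2 ratio -0.67). DNAJA1, another cytosolic partner of HSP70, read 16265 in S100A7 cells and 19364 in vector cells (-0.25), and DNAJB11, a partner of HSPA5 in the endoplasmic reticulum, read 5603 in S100A7 cells and 7202 in vector cells (-0.36). All 4 were lower, and 3 of the 4 DNAJA genes were below 0, DNAJA4 being at 0.04.

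The 5 members at least 1.5-fold higher were DNAJC16, HSPA2, HSPA12A, DNAJB12 and DNAJC24. None reached 2-fold higher with values under the floor raised to it. DNAJC16 read 628 in S100A7 cells and 328 in vector cells, 1.91-fold higher, but its other probe set was at 0.26 on the log2 scale. HSPA2, the HSP70 best known from the testis, read 336 in S100A7 cells and 181 in vector cells, 1.86-fold higher in its 1 probe set (log2 ratio 0.89, and 0.25 with the floor at the 70th percentile). HSPA12A, an unusual member of the HSP70 family, read 124 in S100A7 cells and 50.8, below the floor, in vector cells, at least 1.75-fold higher. With the floor at the 30th percentile, or with none, its log2 ratio was 1.29, past 2-fold. DNAJB12, a J-domain protein of the endoplasmic reticulum membrane, read 1303 in S100A7 cells and 765 in vector cells, 1.70-fold higher, with 4 probe sets between -0.26 and 0.88. DNAJC24, which takes part in the diphthamide modification of elongation factor 2, read 1789 in S100A7 cells and 1172 in vector cells, 1.53-fold higher. The brightest of the DNAJC probe sets were within 1.5-fold. That of DNAJC9, a J-domain protein that binds histones, read 8494 in S100A7 cells and 8637 in vector cells. That of DNAJC15, from the mitochondrial inner membrane, read 8382 in S100A7 cells and 6057 in vector cells (0.47).

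The BAG genes, most of which encode HSP70 nucleotide exchange factors, were above 0 in 4 of 6 cases, with 0 of them beyond 1.5-fold. Of all 13419 measured genes, 6117 were above 0, and 81.7% lay within 1.5-fold. BAG6, which guards newly made membrane proteins, read 9668 in S100A7 cells and 7743 in vector cells, and its 3 measured probe sets lay between 0.32 and 0.44. BAG2 had a log2 ratio of 0.38 and BAG5 of 0.17. BAG1 (-0.48) and BAG4 (-0.12) were below 0. BAG1, BAG2 and BAG4 each had probe sets on both sides of 0. Across the members, 52 had at least 2 measured probe sets, and for 21 of these the probe sets lay on both sides of 0, though in 0 of them by 1.5-fold each way. This was not counted over all measured genes.

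Symbols that met the rule without naming a chaperone held 4 measured entries. HSF2BP, a protein of meiotic recombination named for its binding to HSF2, read 136 in S100A7 cells and 269.96 in vector cells, 1.99-fold lower. DNAJC9-AS1, an antisense RNA, read 69.8 in S100A7 cells and 117 in vector cells (log2 ratio -0.74). DNAJC3-DT read 31.1 in S100A7 cells, below the floor, and 85.9 in vector cells, at least 1.25-fold lower. The HSPE1-MOB4 readthrough, in a probe set shared with MOB4, had a log2 ratio of 0.23. Without these entries, 66 members had a median of -0.08, and the 3 that were 2-fold lower were all among them.

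HSPB1 maps to chromosome 7. The log2 ratios of the 575 measured genes there had their median at -0.30, and 5.04% of these genes reached 2-fold lower. The 5 members on chromosome 7 were all below 0: HSPB1 at -1.97, DNAJC30 at -1.13, DNAJC2 at -0.51, DNAJB6 at -0.32 and DNAJB9 at -0.12. Of the 40 measured genes nearest to HSPB1, 20 on each side, 34 were below 0, with a median of -0.47. RHBDD2, GSAP and CACNA2D1 were the 3 at least 2-fold lower, CACNA2D1 furthest at -1.67, and none of the 40 was as low as HSPB1. With the median of its neighbours subtracted, HSPB1 was at -1.51, still more than 2-fold lower, while DNAJC30, whose neighbours had a median of -0.45, was at -0.68. The neighbours of HSPB1 lay -2.09 to 10.6 Mb from it, and those of DNAJC30 -7.72 to 1.74 Mb. Genes such as RFC2 and POM121C are in both sets, so the neighbour medians are not separate readings.

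**Figure D4:**
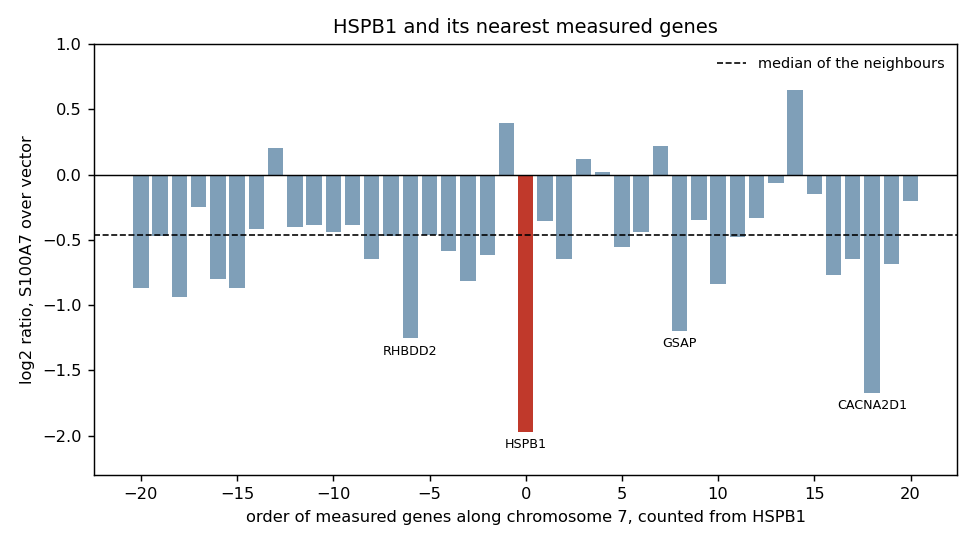
Log2 ratios of S100A7 over vector intensity (bars) for HSPB1 (red, order 0) and the 20 measured genes on each side of it, in their order along chromosome 7; the dashed line is the median of these 40 neighbours, -0.47. Most bars, 34 of the 40, point down, and HSPB1 at -1.97 reaches lower than any of them.

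Across the 70 members the log2 ratio and the median of the 40 nearest genes had a Pearson correlation of 0.49 and a Spearman correlation of 0.47, and without HSPB1 of 0.44 and 0.45. For the 65 members on other chromosomes they were 0.37 and 0.40. The same values over all 13394 placed genes were 0.37 and 0.41. Member and neighbours had the same sign in 67.1% of the members and in 65.8% of all placed genes. These are correlations across genes read on the same pair of arrays, and genes are not independent replicates. On chromosome 10, whose median was 0.21, 5 of 7 members were above 0, among them DNAJB12, HSPA12A, HSPA14 and BAG3. On chromosome 9, with a median of -0.13, all 5 were below 0, among them DNAJA1, HSPA5 and BAG1. Chromosome 6 was mixed: against a chromosome median of 0.24, BAG2 and BAG6 were above 0, and HSP90AB1 and the probe sets listing HSPA1A and HSPA1B below. HSPA6 and DNAJC9-AS1 were among the members that went against neighbours above 0 (0.14 and 0.23).

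**Figure D5:**
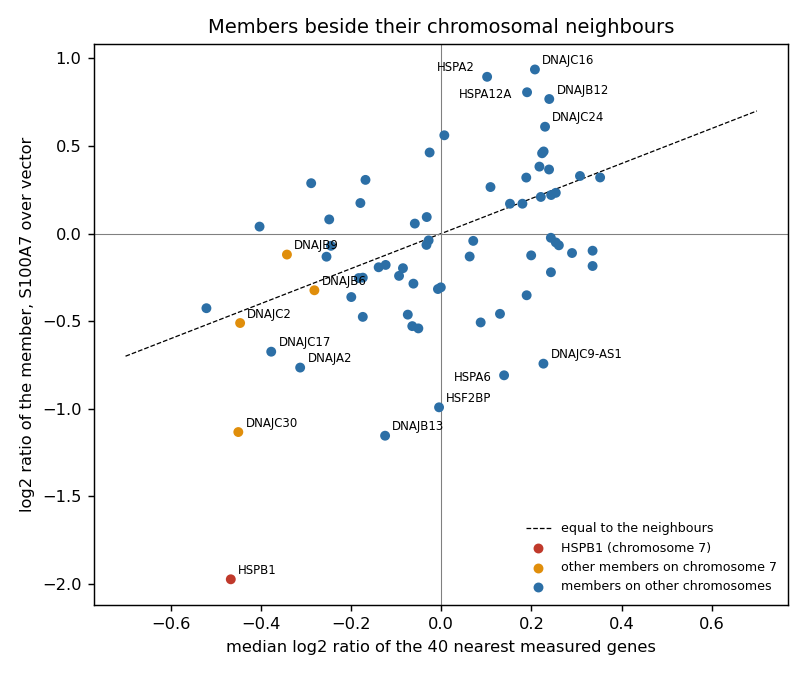
For each of the 70 measured members, the log2 ratio of S100A7 over vector intensity (vertical axis) is plotted against the median log2 ratio of its 40 nearest measured genes (horizontal axis); the dashed line marks equality. HSPB1 (red) sits at -1.97 beside neighbours at -0.47, the other 4 members on chromosome 7 are orange, and HSPA6, HSF2BP and DNAJB13 lie well below neighbours near 0.

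Other genes of the folding machinery were taken from 6 lists. In their brightest probe sets 0 of these genes were 2-fold apart, where 1.86% of all measured genes were 2-fold higher and 2.33% lower. Other probe sets of SQSTM1 (log2 ratio 1.53), SUGT1 (1.42) and GADD45B (1.09) passed 2-fold higher, and none in the lists passed 2-fold lower. Of 20 listed HSF1 targets outside the member families, 17 were measured, with a median log2 ratio of -0.02. At 1.5-fold, 2 of the 17 were lower, DEDD2 (1.63-fold) and ZFAND2A (1.53-fold), and 0 higher. The shares over all measured genes were 10.1% lower and 8.15% higher. UBB, a ubiquitin gene and the brightest of the 17, read 33527 in S100A7 cells and 44562 in vector cells (-0.41). The 23 measured genes listed as co-chaperones of HSP90 and HSP70 had a median of -0.11, from -0.46 for FKBP4 to 0.52 for PPID. FKBP4 and PPID are both peptidyl-prolyl isomerases that bind HSP90. The list also holds CHP1 (-0.42), which is not such a co-chaperone, and the median includes it. The brightest probe set in that list, for the HSP90 co-chaperone p23 (PTGES3), read 23588 in S100A7 cells and 22175 in vector cells. The 8 measured subunit genes of the cytosolic chaperonin TRiC had a median of -0.07, with CCT4 at 25572 in S100A7 cells and 28385 in vector cells. The 7 prefoldin genes had a median of -0.16, with PFDN2 at 12116 in S100A7 cells and 14507 in vector cells. The 21 endoplasmic reticulum folding genes had a median of 0.02, with CANX, the lectin chaperone calnexin, at 20928 in S100A7 cells and 21727 in vector cells. The 11 mitochondrial folding and protease genes had a median of -0.21, with the matrix protease LONP1 at 4461 in S100A7 cells and 5683 in vector cells. Past 1.5-fold in the other lists were SEC63 of the endoplasmic reticulum, 1.62-fold higher, and the mitochondrial CLPB, 1.54-fold lower.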

How the data were processed

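The values are probe set intensities on a linear scale, made by the authors with MAS5 per the submitters' processing notes; the sources used here give no version, scaling target or detection calls. Both arrays had a 2% trimmed mean of 500.1, and the deposited intensities were used unchanged. Probe sets were named through the platform annotation (41091 with 1 gene, 1801 with several, 11721 with none, 62 controls) and placed on GRCh38.p14 by Entrez identifier. Probe sets listing several genes were kept as 1 entry under the listed names. Values below an array's 50th percentile were raised to it, and the log2 ratio of S100A7 over vector was taken for the brightest measured probe set. Where either array was below its floor, the fold is given as at least that size. Every member could be named, with values for HSPB1, for members 1.5-fold apart and for the 2 brightest of each family. From the context lists the rule named genes 2-fold apart and the brightest; others were chosen after their values were seen. The members and lists were chosen with earlier results of these data known. The number of arrays, 1 per group, limits the precision. Alternatives covered normalization, floor, pseudocount, probe sets, threshold and chromosomal neighbours. The counting step was tested on simulated arrays. Columns of values left unused numbered 0. Python 3.11.15, pandas 2.3.3 and numpy 2.4.6 were used.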

Additional observations from a re-analysis of the deposited data

How the results depend on the processing

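HSPB1 stayed more than 2-fold lower in S100A7 cells under the 9 alternatives that gave it a value. Its log2 ratio ran from -1.97 to -1.51, the last after subtracting the median of chromosomal neighbours, where its distance from the other members was -1.45. Leaving out probe sets ending in _x_at and _s_at removed its 1 probe set, so no value exists there. The member median ran from -0.12 to -0.03 over 10 alternatives. Counts depended on the floor. Lowering it to the 30th percentile gave 2 members 2-fold higher and 5 lower (4.07% and 5.87% of all genes). Using none gave 6 and 6 (9.67% and 12.0% of all genes). Both settings keep dimmer probe sets and raise low values less or not at all. HSPA12A (higher) and DNAJC3-DT (lower) were already measured with the main floor, and both passed 2-fold in these settings. With the median over probe sets 1 was lower, HSPB1. At a threshold of 1.5-fold 5 were higher and 8 lower, and at 3-fold 1 was lower. Of the 12 other members 1.5-fold apart, 0 changed direction under the alternatives that gave them a value, but at the weakest DNAJC17 came to -0.01, HSPA2 to 0.25 (both with the higher floor) and DNAJC30 to -0.64. No paired analysis was possible because each group has 1 array.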

Other observations

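SEC63 encodes a J-domain protein of the endoplasmic reticulum translocon that has no DNAJ symbol and so was not a member. It was chosen here after its values were seen. It read 3998 in S100A7 cells and 2466 in vector cells, 1.62-fold higher, and its 5 probe sets lay between 0.67 and 0.94 on the log2 scale. It lies on chromosome 6, whose median was 0.24. The genes left out by the rule read nearly level or slightly lower: HSPBAP1, which encodes a protein that binds HSPB1, at 486.3 in S100A7 cells and 486.6 in vector cells, and HSPBP1, an exchange factor of HSP70, at 1691 in S100A7 cells and 1972 in vector cells (log2 ratio -0.22).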
